A study of Arabidopsis thaliana and Marchantia polymorpha with 6 samples.

Results

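Expansins and xyloglucan endotransglucosylase/hydrolases (XTHs) are 2 families of secreted proteins that loosen the plant cell wall. The genes described here are the 69 protein-coding genes, of 27432 on the Arabidopsis nuclear chromosomes, that a gene table names EXPA, EXPB, EXLA, EXLB or XTH with a number. They comprise 36 expansin genes and 33 XTH genes. Of the 69, 63 were matched by their symbol and 6 by a synonym alone, among them TCH4 (XTH22), XTR6 (XTH23) and PNP-A (EXLB3), which encodes a plant natriuretic peptide.

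The binding data come from DNA affinity purification sequencing (DAP-seq), in which a purified protein selects fragments of naked genomic DNA in a test tube. AtPIF4 and AtHY5 were each produced in E. coli and held on amylose beads. The DNA was taken from wild-type Col-0 seedlings of Arabidopsis thaliana, 10 days old and grown on MS medium, and had a mean fragment length of 200 bp. Such DNA carries no chromatin and the reaction holds no plant partner protein, so the events are positions the recombinant protein selects from bare DNA, not occupancy in a cell. With 1 library a protein, there is no replicate error for any value. The labels of the series also describe an input for Arabidopsis and 3 Marchantia libraries, which were not analysed here. In all, 6699 AtPIF4 events and 16825 AtHY5 events were listed, with median scores of 146 and 117. A score is the authors' own value for an event and ranks events within 1 list only.

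Growing plant cells are held in by cellulose fibrils tied together by xyloglucan and pectin. Expansins let these polymers slip past each other at acid pH without cutting them, and XTH enzymes cut xyloglucan chains and join the ends to other chains or, in some members, to water. PIF4, a bHLH factor, promotes elongation in warmth and shade, while HY5, a bZIP factor, restrains hypocotyl elongation in light, and genes of wall loosening are textbook outputs of such growth control. Both proteins are known to bind the G-box, a short palindromic DNA element. No sequence is shown here because only a gene table accompanied the lists.

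A gene was said to have an event when the event centre lay inside the gene or within 1000 bp of either end. Of the 69 genes, 34 had an AtHY5 event, or 49.3% (95% Wilson interval 37.8 to 60.8), against 47.7% of all protein-coding genes. An AtPIF4 event was present at 17 of them, or 24.6% (16.0 to 36.0), against 23.1% of all genes. Events of both proteins were present at 13, or 18.8%, against 17.0% of all genes. The set as a whole thus stood close to the background for both proteins. Intervals here cover counting error only and treat genes as independent, which neighbours that share an event are not. Members were chosen by gene name, and the group itself was selected on its counts of AtPIF4 and AtHY5 events, so these counts are descriptions and were not tested.

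The near-background total joins opposite shares for the 2 families. AtHY5 events were present at 24 of 36 expansin genes, or 66.7% (50.3 to 79.8), and at 10 of 33 XTH genes, or 30.3% (17.4 to 47.3). Genes differ in length and in the free space around them, so the share of all genes was also weighted to the members' classes of length and of gap to both neighbours. That weighted share was 48.1% for the expansins and 48.8% for the XTH genes. In number, 24 expansins stood against a weighted 17.3, and 10 XTH genes against 16.1. In all 9 alternatives computed for the expansins the share lay above the weighted share, and in all 7 computed for the XTH genes it lay below. The alternatives recount largely the same genes from the same list, so their agreement is not independent support. The difference between the families is part of what the group was selected on and was not tested.

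**Figure D1:**
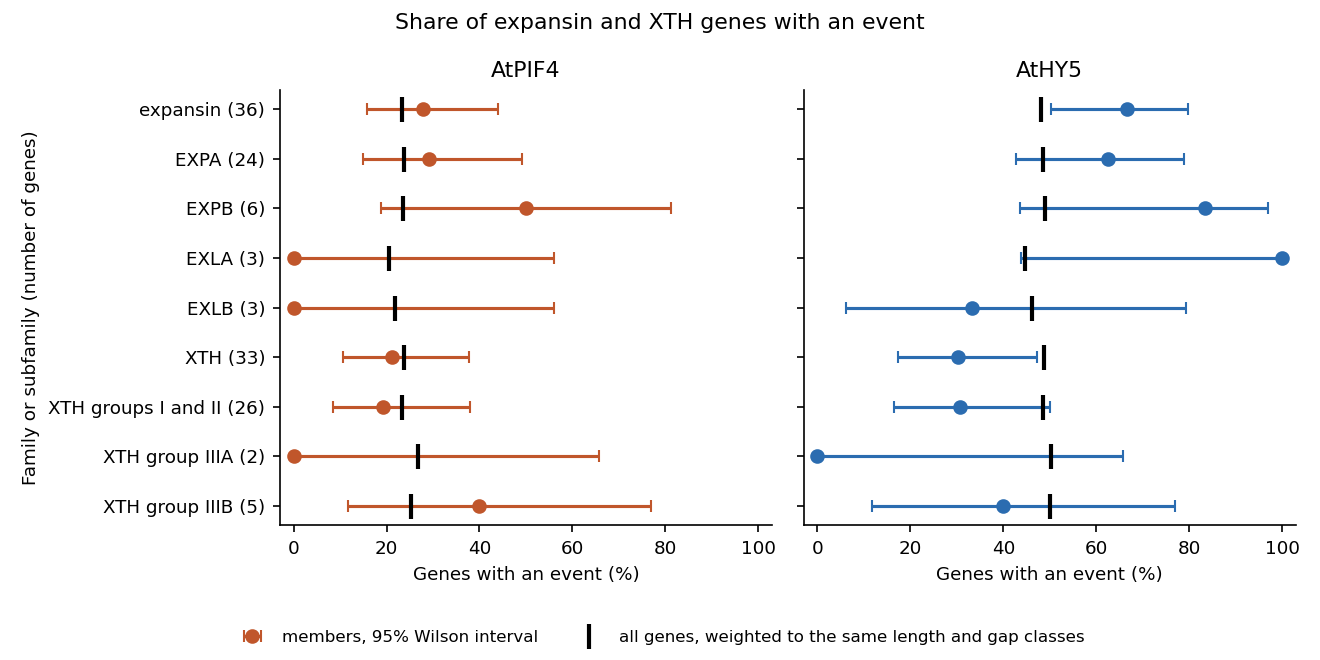
Percent of genes with an AtPIF4 event (left) or an AtHY5 event (right), for expansin and XTH genes and their subfamilies, with the number of genes in brackets. Points are the members with 95% Wilson intervals, and black ticks are all protein-coding genes weighted to the same length and gap classes. For AtHY5 the expansins, at 66.7%, lie above their tick and the XTH genes, at 30.3%, below theirs.

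The number of events differed in the same direction. Within the windows of the expansins there were 0.310 AtHY5 gene and event pairs per kb. The windows of the XTH genes held 0.0885, a ratio of 3.50. An event at 2 members counts for both, so the 41 pairs at expansins came from 37 events, and the 11 at XTH genes from 11. All protein-coding genes had 0.165 per kb. More than 1 AtHY5 event was found at 13 expansins, or 36.1%, and at 1 XTH gene, XTH6, or 3.03%, against 17.7% of all genes. EXPA1, EXPA7, EXPA8 and EXLA2 had 3 each. For AtPIF4 the densities were 0.113 per kb at expansins, 0.0563 at XTH genes and 0.0639 at all genes. A pair of AtPIF4 events was found at 5 expansins, or 13.9%, and at 0 XTH genes, against 4.05% of all genes with 2 or more. The neighbouring genes EXPA21 to EXPA25 supplied 7 of the 15 AtPIF4 gene and event pairs at expansins, and 1 of their events was counted for 2 genes. Without them the expansins had 0.0689 AtPIF4 pairs per kb, close to all genes, and 2 of 31 had 2 or more events. For AtHY5 the density without them was 0.267 per kb, and 8 of 31, or 25.8%, had 2 or more.

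Among the expansins, the alpha expansins (EXPA) are the largest subfamily and act mainly in cell growth. AtHY5 events were present at 15 of 24 EXPA genes, against 11.7 in the weighted background, and AtPIF4 events at 7, against 5.68. Of the 6 beta expansin genes (EXPB), 5 had an AtHY5 event and 3 an AtPIF4 event, against 2.94 and 1.41. All 3 expansin-like A genes (EXLA) had an AtHY5 event and none an AtPIF4 event, against 1.34 and 0.613. Of the 3 expansin-like B genes, EXLB1 alone had an event, of AtHY5 with a score of 117, and neither EXLB2 nor PNP-A had one of either protein, against 1.39 genes for AtHY5 and 0.656 for AtPIF4. With 3 to 6 genes in these smaller subfamilies the intervals are wide, and all but those of the EXPA genes span more than 50 percentage points.

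EXPA8, an alpha expansin gene on chromosome 2, held the most events of the 69 genes, all of them inside the gene. Its 3 AtHY5 events had scores of 721, 251 and 86.3, and the first of these exceeded 97.2% of the AtHY5 list. Its 2 AtPIF4 events had scores of 228 and 115. The AtHY5 event with a score of 721 lay at 16949074 to 16949273, 382 bp inside one gene end and 968 bp from any AtPIF4 event. The other AtHY5 events lay at 16950040 to 16950239 and 16950168 to 16950367, each centred 2 bp or less from an AtPIF4 event. Coordinates are printed as in the event lists, for which TAIR10 is named as the build. EXPA8 therefore carried both a high-scoring AtHY5 position of its own and a doublet that the 2 proteins shared.

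Of the other expansins among the 10 members with the highest AtHY5 scores, EXPA16, EXPA18, EXPA20, EXLA2 and EXPA9 had no AtPIF4 event. EXPB3 and EXPA24, with AtHY5 scores of 235 and 174.5, had 2 AtPIF4 events each and are described below. EXPA16 had a score of 524 from an event 866 bp beyond a gene end at 20577016 to 20577215 on chromosome 3. EXPA18, which acts in root hairs, had scores of 518 and 62.2 from events inside the gene. EXPA7, the other root-hair expansin, had 3 events, but their scores of 72, 60 and 59 were among the lowest of the list, whose minimum is 59. The lower EXPA18 event also ranked near the bottom of the list, above 3.27% of it. EXPA20 had scores of 327 and 96.8, both from events inside neighbouring genes. EXLA2 had scores of 239, 102 and 96.4, and EXPA9 had 203.

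EXPA1, known for its role in guard cell walls, had AtHY5 scores of 114, 112 and 81, all below the list median of 117. Its nearest AtPIF4 event lay 1130 bp beyond a gene end, outside the window. The AtHY5 scores of EXPA17, which acts in lateral root formation, and of EXPA14 were 133 and 59.3. EXLA1 had a score of 163, EXLA3 had 148 and EXPB4 had 87. The lone events of EXPA17, EXPA14, EXLA1, EXLA3 and EXPB4 lay on both sides of the list median, with no AtPIF4 event in any of the windows. That of EXPA14 ranked above only 0.636% of the list.

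AtPIF4 events at expansins were fewer, and 9 of the 10 genes that had one also had an AtHY5 event, against 73.5% of all genes with an AtPIF4 event. The highest AtPIF4 score was at EXPB3, 331 from an event 762 bp beyond a gene end at 13998764 to 13998963 on chromosome 4, higher than 89.6% of its list. EXPB3 had a second AtPIF4 event with a score of 181 inside the gene, 59 bp from an AtHY5 event with a score of 235. EXPB1 had an AtPIF4 event with a score of 281 and an AtHY5 event with a score of 120, centred 1 bp apart, and a further AtHY5 event with a score of 112. The close pair at EXPB1 lay 156 bp beyond its end and inside the neighbouring gene AT2G20760. EXPA2, which acts in germinating seeds, had an AtPIF4 score of 206 and an AtHY5 score of 83 from centres 1 bp apart, and a second AtHY5 event with a score of 75. At EXPA2 and EXPB1 the AtPIF4 event thus ranked higher in its list than the AtHY5 event at the same place did in its own. EXPB2 had an AtPIF4 score of 83 and an AtHY5 score of 75 at positions 1105 bp apart. EXPA4 was the expansin with an AtPIF4 event alone, with a score of 137 inside the gene.

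**Figure D2:**
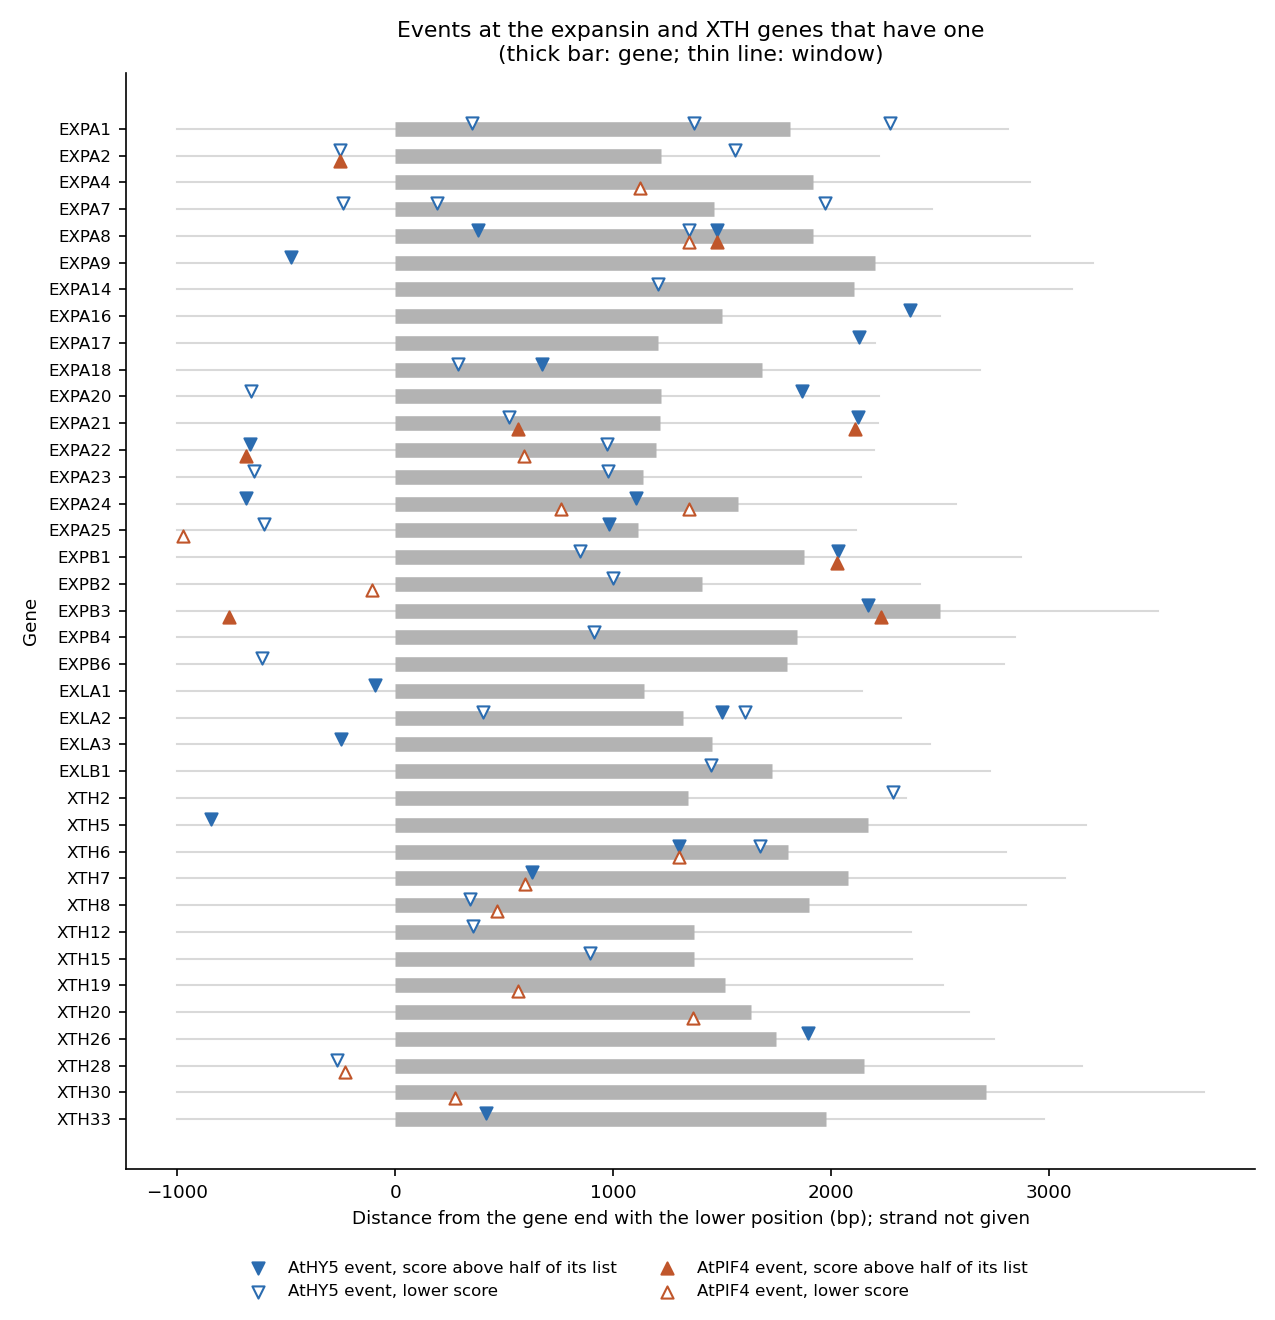
Positions of AtHY5 events (downward triangles) and AtPIF4 events (upward triangles) at the 38 genes that have one, in bp from the gene end with the lower position, since strand was not given. Thick bars are genes, thin lines the window of 1000 bp beyond either end, and filled symbols events whose score exceeds at least 50% of their list. EXPA8 holds 5 events inside the gene, and the XTH rows hold fewer symbols than the EXPA rows.

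A block of neighbouring alpha expansin genes on chromosome 5, EXPA21 to EXPA25, accounted for 4 of the 10 expansins with an AtPIF4 event. All 5 genes had 2 AtHY5 events each, with highest scores of 165 for EXPA21 and EXPA22, 94.4 for EXPA23, 174.5 for EXPA24 and 151 for EXPA25. EXPA21 and EXPA22 share an AtPIF4 event with a score of 150 and an AtHY5 event with a score of 165, centred 15 bp apart between the genes. EXPA22 and EXPA23 share the AtHY5 event with a score of 94.4, and EXPA24 and EXPA25 that with a score of 151. The further AtPIF4 events had scores of 163 at EXPA21, 132 at EXPA22, 128 and 94 at EXPA24 and 124 at EXPA25. The last of these lies inside EXP26, an alpha expansin gene of the same block whose names in the table do not follow the pattern used to choose members. EXP26 also held an AtHY5 event with a score of 68. The sources used here do not give how reads that fit several gene copies were treated.

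Without EXPA21 to EXPA25, 19 of 31 expansins had an AtHY5 event, or 61.3%, and 6 had an AtPIF4 event, or 19.4%. The AtHY5 share stayed above its weighted share of 48.4%, by less than with the block. No interval was computed for it, so its distance from the background has no counting error beside it. The AtPIF4 share was below its weighted share of 23.5%. Among the EXPA genes alone, AtPIF4 events were then present at 3 of 19 and AtHY5 events at 10, beside 23.1% and 47.7% of all genes. The AtHY5 count of these EXPA genes thus stood near the share of all genes. With the block, 10 of 36 expansins had an AtPIF4 event, or 27.8% (15.8 to 44.0), against a weighted 23.2%. Within 1000 bp, the position of the expansins relative to the background for AtPIF4 therefore rests on these neighbours. Other windows were not counted without them. EXPB2 and EXPB6, another pair of neighbours, share the AtHY5 event with a score of 75.

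For AtPIF4, 7 of 33 XTH genes had an event, or 21.2% (10.7 to 37.8), against a weighted 23.8%. Every one of them had a single AtPIF4 event, and 6 of the 7 events lay inside the gene. XTH6 had a score of 136, XTH30 had 135, XTH7 had 131, XTH20 had 124 and XTH19 had 119. XTH8 had a score of 101 and XTH28, which acts in stamen filaments, had 93. None of the 7 exceeded the list median of 146, whereas 7 of 14 AtPIF4 events at expansins did. Over all events at protein-coding genes that share was 50.1%. XTH19 and XTH20, close relatives active in roots and in healing stems, and XTH30 had no AtHY5 event.

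The highest AtHY5 events at XTH genes ranked higher within their own list than any AtPIF4 event there did in its own. The median events were close, above 31.9% of the list for AtHY5 and 32.9% for AtPIF4. XTH33 had a score of 432 from an event inside the gene at 3479384 to 3479583 on chromosome 1, higher than 93.1% of the list. XTH5 followed with 207, from an event 847 bp beyond its end and inside a neighbouring gene. XTH7 had a score of 155, XTH26 had 136, XTH6 had 117 and 79.9, and XTH2 had 92.8. XTH15, a gene widely used as a marker of shade responses, had 75.9, XTH28 had 74, XTH12 had 73 and XTH8 had 68. Of the 11 AtHY5 events, 5 exceeded the list median, or 45.5%, against 15 of 37 at expansins, or 40.5%, and 50.4% of events at all genes. The median event ranked above 31.9% of the list at XTH genes and above 46.6% at expansins, so the 2 measures of rank put the families in opposite orders.

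**Figure D3:**
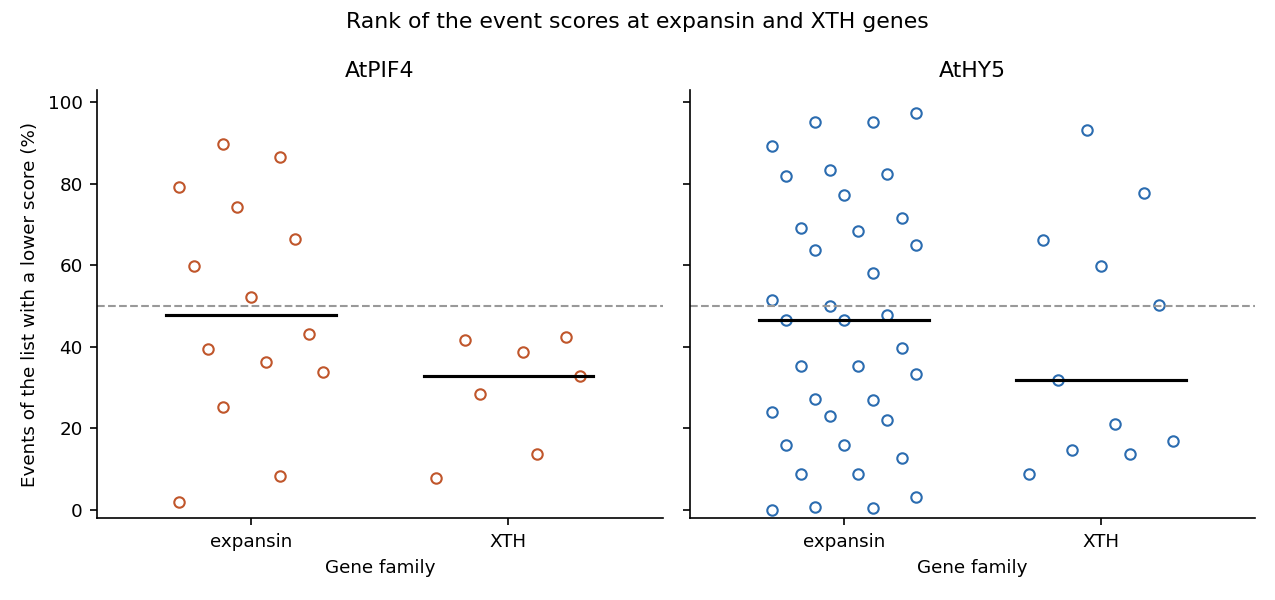
Rank of each event at expansin and XTH genes, given as the percent of its own list with a lower score, for AtPIF4 (left) and AtHY5 (right), each event drawn once. Black lines are medians and the dashed line marks 50%. All 7 AtPIF4 events at XTH genes lie below the dashed line, while events of AtHY5 at expansins spread over the whole range.

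By subfamily, 8 of 26 XTH genes of groups I and II had an AtHY5 event, against 12.6 in the weighted background, and 5 an AtPIF4 event, against 6.04. Neither XTH31 nor XTH32, the group IIIA enzymes that hydrolyse xyloglucan, had an event, against 1.01 genes for AtHY5 and 0.537 for AtPIF4. Of the 5 genes of group IIIB, XTH28 had events of both proteins, XTH33 had AtHY5 alone and XTH30 had AtPIF4 alone, so that each protein had events at 2 of them, beside 2.50 in the weighted background for AtHY5 and 1.27 for AtPIF4. The neighbours XTH12, XTH13, XTH25 and XTH22 on chromosome 5 had 1 event among them, the AtHY5 event of XTH12. The block of XTH24, XTH18 and XTH19 on chromosome 4 also had 1, the AtPIF4 event of XTH19. XTH22, the touch-induced TCH4 gene, lay 6329 bp from the nearest AtHY5 event and 17626 bp from the nearest AtPIF4 event. Of the neighbouring pairs, XTH1 and XTH2 had the AtHY5 event of XTH2, and XTH14 and XTH23 had no event. Both larger XTH blocks thus held fewer events than the EXPA21 to EXPA25 block, in which neighbours share events. The blocks differ in number of genes, and no background share was computed for the XTH blocks.

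No event of either protein was found at 20 XTH genes and 11 expansin genes, together 31 of 69. At least 1 event was found at 55.1% of the members, against 53.8% of all genes. The XTH genes without one were XTH1, XTH3, XTH4, XTH9, XTH10, XTH11, XTH13, XTH14, XTH16, XTH17, XTH18, XTH21, XTH22, XTH23, XTH24, XTH25, XTH27, XTH29, XTH31 and XTH32. The expansins without one were EXPA3, EXPA5, EXPA6, EXPA10, EXPA11, EXPA12, EXPA13, EXPA15, EXPB5, EXLB2 and EXLB3. Among genes without an AtHY5 event, the nearest one lay at a median of 5408 bp for expansins and 4531 bp for XTH genes. For AtPIF4 these medians were 4158 bp and 7784 bp.

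At the edge of the window, the farthest events counted were that of AtPIF4 at EXPA25, 976 bp beyond a gene end, and those of AtHY5 at XTH2 with 945 bp and at EXPA17 with 924 bp. Just outside lay AtPIF4 events at 1025 bp from EXPA23 and 1082 bp from XTH17, and AtHY5 events at 1063 bp from EXPA6 and 1071 bp from XTH11. Between 1000 and 2000 bp lay the nearest AtPIF4 event of 9 expansins and 3 XTH genes, EXPA23 and XTH17 among them. Of these events, the one with the highest score was at EXPA9, with 431 at 1148 bp. Those of EXPA23 and EXPB6 were already counted, within 1000 bp, for EXPA22 and EXPB2. XTH27, which acts in vein development, had both an AtPIF4 event with a score of 208 at 1534 bp and an AtHY5 event with a score of 512 at 1691 bp. With a window of 2000 bp, 19 of 36 expansins had an AtPIF4 event, or 52.8%, against 31.5% of all genes. Those 19 include EXPA21 to EXPA25, and the count at 2000 bp without them was not computed.

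**Figure D4:**
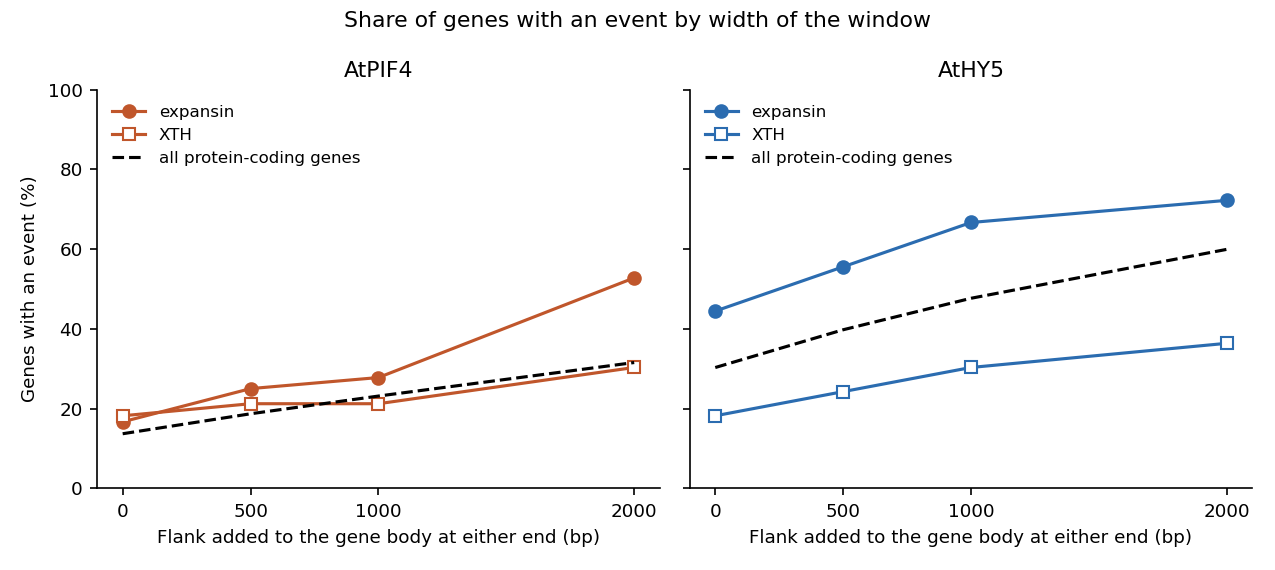
Percent of expansin genes, XTH genes and all protein-coding genes with an AtPIF4 event (left) or an AtHY5 event (right) against the flank in bp added to the gene body at either end. For AtHY5 the expansins lie above all genes and the XTH genes below them at all 4 widths, from 44.4% against 18.2% in the gene body alone to 72.2% against 36.4% with 2000 bp. For AtPIF4 the families separate at 2000 bp.

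The order of the families for AtHY5 was the same at each window and threshold, all of which recount the same genes from the same list. In the gene body alone, AtHY5 events were found at 16 expansins, or 44.4%, and 6 XTH genes, or 18.2%, against 30.3% of all genes. With 500 bp added they were found at 20 expansins, or 55.6%, and 8 XTH genes, or 24.2%, against 39.8% of all genes. With 2000 bp added they were found at 26 expansins, or 72.2%, and 12 XTH genes, or 36.4%, against 59.9% of all genes. Events above the list median were present at 15 expansins, or 41.7%, and 5 XTH genes, or 15.2%, against 27.9% of all genes. With only as many AtHY5 events as there are AtPIF4 events, the highest-scoring ones, the counts were 13 expansins, or 36.1%, and 3 XTH genes, or 9.09%, against 23.0% of all genes.

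For AtPIF4 the order of the families depended on the window. The gene body alone held events at 6 expansins and 6 XTH genes, or 16.7% and 18.2%, against 13.7% of all genes. With 500 bp added the counts were 9 and 7, against 18.7% of all genes, and with each event given to the nearest gene they were 8 and 7, against 17.6%. Events above the list median were present at 6 expansins, or 16.7%, and 0 XTH genes, against 12.6% of all genes. Events of both proteins were found at 12 of the 69 members with 500 bp added, or 17.4%, against 13.2% of all genes. With 2000 bp they were found at 22, or 31.9%, against 25.2%. The number with both was 8 in the gene body alone, or 11.6%, against 9.00% of all genes. In the flanks alone it was 6, or 8.70%, against 7.05%, and with the nearest gene only 11, or 15.9%, against 12.3%. Above the median score it was 5, or 7.25%, against 7.65%. With equal numbers of events it was 7, or 10.1%, against 10.8%.

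The share of events inside the gene, rather than in its flanks, was 51.9% of 52 gene and event pairs for AtHY5 and 63.6% of 22 for AtPIF4, against 56.5% and 55.9% at all genes. Inside genes, the median distance from the nearer gene end was 409 bp for AtHY5 and 530 bp for AtPIF4, against 502 and 533 bp at all genes. The flanks separate the families for AtHY5 too. AtHY5 events in the flanks alone were found at 17 expansins, or 47.2%, and 4 XTH genes, or 12.1%, against 25.9% of all genes. The 17 include EXPA21 to EXPA25, and EXPA21 and EXPA22 were counted for 1 shared AtHY5 event. The AtHY5 flank events of EXPA23, EXPA24 and EXPA25 lie inside their neighbours EXPA22, EXPA25 and EXP26. AtPIF4 events in the flanks were found at 7 expansins, or 19.4%, and 1 XTH gene, XTH28, against 11.4%. These expansins include EXPA21, EXPA22 and EXPA25 of the block of neighbours, and EXPA21 and EXPA22 were counted for 1 shared event. Flank counts without the block were not computed. Flanks can lie in other genes. At EXPA17, EXPA20, EXPB6 and XTH5 the only AtHY5 events, and at EXPA25 and EXPB1 the only AtPIF4 events, lay inside a neighbouring gene. With each event given to the nearest gene, 21 expansins, or 58.3%, and 8 XTH genes, or 24.2%, had an AtHY5 event, against 37.3% of all genes.

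Of the 17 members with an AtPIF4 event, 76.5% also had an AtHY5 event, and of the 34 with an AtHY5 event 38.2% also had an AtPIF4 event. The same shares over all genes were 73.5% and 35.7%. In 9 of the 13 genes with both, a pair of centres lay within 100 bp, or 69.2%, against 70.1% of all genes with both. Those 9 genes make up 13.0% of the members, and 11.9% of all genes have such a pair. The closest pairs were 1 bp apart, at EXPA2, EXPA8, EXPB1 and XTH6. They were 15 bp apart at EXPA21 and EXPA22, 31 bp at XTH7, 35 bp at XTH28 and 59 bp at EXPB3. The remaining distances were 124 bp at XTH8, 242 bp at EXPA24, 375 bp at EXPA25 and 1105 bp at EXPB2. Of 21 AtPIF4 events at members, 47.6% (28.3 to 67.6) had an AtHY5 event within 100 bp, close to the 47.3% of the whole list. Coincidence of the 2 proteins at wall-loosening genes was thus near that of the genome.

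Other genes of wall growth were counted in the same way, from lists chosen with earlier results of these data known. Of 10 cellulose synthase genes, 7 had an AtHY5 event and 2 an AtPIF4 event. Those with both were CESA3, a subunit of the primary wall complex, with scores of 67 for AtHY5 and 83 for AtPIF4, and CESA4, a subunit of the secondary wall complex, with 260 and 207. Of 12 xyloglucan synthesis genes, 6 had an AtHY5 event and 2 an AtPIF4 event. The 6 are the 5 xylosyltransferase genes XXT1 to XXT5 and MUR3, a galactosyltransferase gene. XXT2 and XXT4 had AtHY5 scores of 94.8 and 74, below the list median of 117. Neither FUT1 nor any of the 5 CSLC genes for the glucan backbone had an event. No background share was computed for these parts of the list. XXT3 had an AtHY5 score of 785 and an AtPIF4 score of 249. Of 11 plasma membrane proton pump genes, which acidify the wall, 3 had an AtHY5 event and 2 an AtPIF4 event, with both at AHA11 (358 and 522). In the weighted background, AtHY5 genes numbered 5.36, 6.13 and 5.82 for these lists, in the same order, and AtPIF4 genes 2.79, 3.01 and 3.02.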

How the data were processed

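Trim Galore, Bowtie2 and the build TAIR10 are named, without versions, per the submitters' processing notes. The file headers name GEM as the caller of the events. Each deposited score is a value the authors' caller gave to an event; its unit and normalization, the calling threshold and the use of the input are not given in the sources used here. Read counts were not used, so depth is unknown. Events are intervals of 200 bp, with positions counted from 1.

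The gene table is that of TAIR10.1, so no gene coordinates are printed. Events lay inside genes most often without a shift (63.0% for AtPIF4, 65.3% for AtHY5) against 55.3% to 57.9% after shifts of 1000 or 2000 bp. The table gives no strand, and no genome was used, so the planned upstream classes and motif shares were not run. Planned random matching was replaced by shares of all genes weighted over 5 length and 5 gap classes.

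The members, lists and rules were chosen with earlier results of these data known. Genes named are those with an AtPIF4 event, with both proteins, with shared or close events, or among the 10 highest AtHY5 scores; members with no event are listed by name. Other members with an AtHY5 event, and values given for members without one, were added after their values were seen. Python 3.11.15, pandas 2.3.3 and scipy 1.17.1 were used, and windows were tested on simulated data.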

Additional observations from a re-analysis of the deposited data

How the results depend on the processing

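Alternatives changed the window, the score threshold, the assignment to genes and the distance between centres. The share with AtHY5 at expansins lay above, and at XTH genes below, the weighted share of all genes in each of them. They recount largely the same genes from the same lists and are not independent. With 2000 bp, AtPIF4 events were found at 29 of 69 members and 19 expansins, and both proteins at 22. In the gene body alone the counts were 6 expansins for AtPIF4, 22 members and 6 XTH genes for AtHY5, and 8 members with both. In the flanks alone they were 8 members and 1 XTH gene for AtPIF4, 21 members and 4 XTH genes for AtHY5, and 6 members with both. Among events above the list median, AtPIF4 was found at 6 members, all expansins and 0 XTH genes, and AtHY5 at 20 members, 15 expansins and 5 XTH genes. Both proteins then met at 5 members, and within 100 bp at 5. With as many AtHY5 as AtPIF4 events, AtHY5 counts were 16 members, 13 expansins and 3 XTH genes, with 7 members holding both. Fewer events or narrower windows lower a count by construction. Chosen after seeing the data, leaving out EXPA21 to EXPA25 gave 6 expansins for AtPIF4, and adding EXP26 gave 11 of 37 for AtPIF4 and 25 of 37 for AtHY5. The other alternatives moved each count by at most 1.5 times. No paired analysis was possible because each protein has 1 library. Depth is unknown, so an event that is not listed is not shown to be absent.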
